A study of Nicotiana tabacum with 18 samples.

Results

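The female and the male parent of the tobacco hybrid G70×GDH11 were compared at the level of leaf transcripts. The comparison rested on 3 libraries of G70 (HP1) and 3 libraries of GDH11 grown as the parent of this cross (HP2), that is, on 6 of the 18 libraries of the series, and on every gene with at least 1 FPKM (fragments per kilobase of transcript, scaled to the mapped fragments of the library) in at least 3 of these 6. Of 69500 genes in the table, 33068 passed this filter. From a larger set of field-grown crosses, the study sequenced RNA of middle leaves at 70 days from 2 hybrids that share the male parent GDH11, and from their parents. Besides HP1 and HP2, values are given for the hybrid G70×GDH11 (H), for K326 (LP1), which is the female parent of the other cross, for GDH11 grown beside that cross (LP2) and for the hybrid K326×GDH11 (L), with 3 libraries each. None of the groups carried a transgene or received a treatment, so that the groups differ by genotype. The study planted parents next to their hybrid, so that groups of different crosses also differ by the cross with which they were grown. Between HP2 and LP2, which are the same parent, this is the difference that the labels give. Leaves of several plants of a plot were mixed for a sample. The labels do not say whether the libraries of a group are independent plots or repeated samples of the same material, and p-values then measure the spread between these libraries, which may be technical in part.

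Tobacco (Nicotiana tabacum) is an allotetraploid, with the genomes of Nicotiana sylvestris and Nicotiana tomentosiformis side by side, so that most genes exist as near-identical copies. Parents of a cross differ in which gene copies they carry and in how strongly these are transcribed, and the leaf of their hybrid receives 1 set of chromosomes from each. The traits of interest in this material are the potassium content of the leaf and the proteins that move K+ across the membranes of the cell, the chloroplast and the vacuole. Identifiers of the Nitab4.5 gene set consist of the scaffold and the order of the gene on it. Apart from 26 K+ genes, the genes had no name in the sources used here, so that most genes below are given by identifier. For the same reason the leaf was not checked against markers of leaf or of other tissues.

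The FPKM of the 6 parental libraries summed to between 764055.14 and 812289.59, and 31474 to 33091 genes reached 1 FPKM in a library. Replicate 1 of G70 and replicate 1 of GDH11 stood apart from the other 4 libraries. On the principal component that held 55.8% of the variance they lay at -101.8 and -71.4, while the others lay between 36.9 and 53.3. Within a group, levels of replicate 1 correlated with those of the other replicates with r of 0.874 to 0.883 across genes, against 0.969 and 0.964 between replicates 2 and 3. In the K326 cross, replicate 2 of GDH11 had the fewest genes at 1 FPKM or more of all 18 libraries (27527). Counts below are therefore also given without these libraries.

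Between the parents, 130 genes were called, that is 0.393% of those tested. A call needed a difference of at least 1 on the log2(FPKM + 1) scale and a Benjamini-Hochberg adjusted p no higher than 0.05. Of these, 50 were higher in G70 (0.151%) and 80 were lower (0.242%). The median difference was 2.45 for the genes higher in G70 and -2.26 for those lower, against -0.06 over all genes tested. Differences of at least 2 in size were found for 89 genes and of at least 3 for 46 genes. The 3 values of 1 parent lay outside those of the other for 130 of the 130 called genes and for 8.42% of all genes tested. A lower parent with all 3 libraries under 1 FPKM was seen for 89 of the called genes (35 higher and 54 lower in G70), and 13 were listed at 0 in all 3 libraries of the lower parent. At an unadjusted p of at most 0.05 and any size of difference, 1059 genes (3.2%) would have passed.

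**Figure D1:**
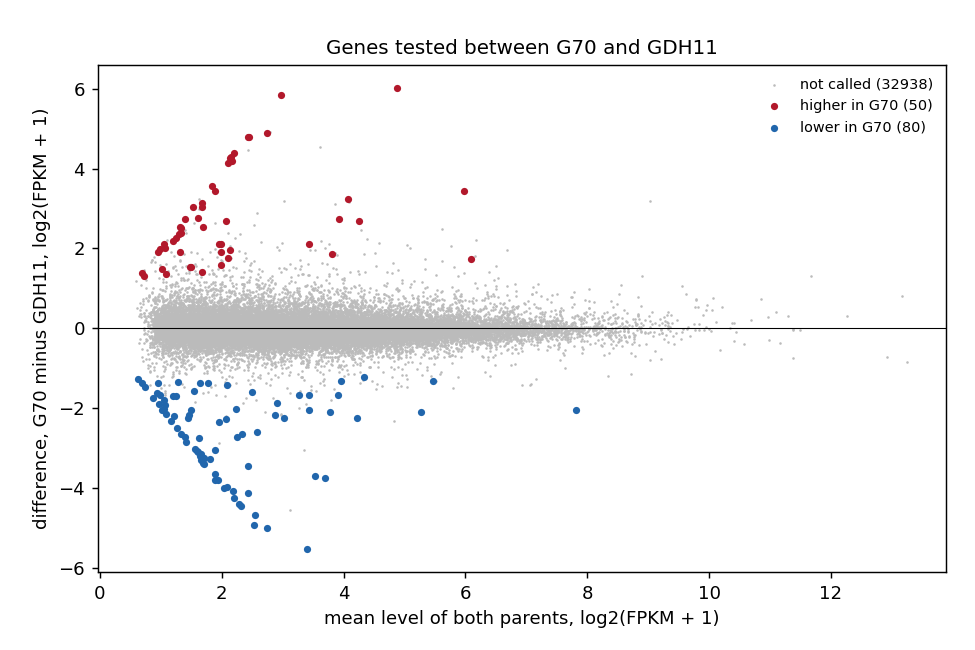
Difference between G70 and GDH11 (y axis, log2(FPKM + 1)) against the mean level of both parents (x axis, log2(FPKM + 1)) for the 33068 genes tested. Each point is a gene, and the 50 genes called higher and the 80 called lower in G70 are coloured; many of these lie on 2 straight edges, where the level of the lower parent is close to 0.

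The number of called genes depended on the libraries. It was 153 without replicate 1 of both parents, of which 94 were among the 130, and the direction was then more even, with 80 higher and 73 lower. In a fit with the replicate block, 177 genes were called, 87 higher and 90 lower, and 120 of the 130 remained. Leaving out 1 library of the 6 gave 119 genes without G70 replicate 1, 38 without G70 replicate 2, 37 without G70 replicate 3, 67 without GDH11 replicate 1, 46 without GDH11 replicate 2 and 37 without GDH11 replicate 3. In all of these fits the 130 genes kept the sign of their difference. The values of the parents did not overlap for any of the 130, so that these fits could not change the sign. Of the 130 genes, 32 kept their call in each fit without 1 library. The share of called genes that were higher in G70 was 38.5% over the 6 libraries, 52.3% without replicate 1 of both parents and 25.4% without GDH11 replicate 1, so that the balance of directions depended on these libraries.

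The largest difference in favour of G70 was that of Nitab4.5_0000697g0230. It was listed at 91.64, 276.91 and 506.28 FPKM in G70 and at 4.28, 2.62 and 1.50 FPKM in GDH11. The groups lay far apart, although the 3 libraries of G70 also differed among themselves. The difference was 6.02 ± 0.63 (SE) on the log2(FPKM + 1) scale (limma, Benjamini-Hochberg adjusted p = 0.0189), and the call was lost without each library other than G70 replicate 1 (adjusted p of 0.0571 to 0.127). H lay between the parents at 131.94, 26.71 and 209.82 FPKM. In the other cross both parents were low, with 0.86 to 3.44 FPKM in K326 and 1.69 to 12.61 FPKM in its GDH11, whereas their hybrid L was listed at 188.85 to 248.76 FPKM.

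Nitab4.5_0006376g0030 was the clearest case of a gene on in G70 and off in GDH11. Its level was 47.22, 65.77 and 63.39 FPKM in G70 and 0.00, 0.00 and 0.10 FPKM in GDH11, a difference of 5.84 ± 0.20 (limma adjusted p = 0.000531, the smallest of the comparison). The 3 values within each parent were close, and the call held without each of the 6 libraries in turn. H was at the level of G70 (41.88 to 73.11 FPKM), and so was K326 (49.65 to 64.46 FPKM), while LP2 stayed at or under 0.13 FPKM. The next tested gene on the same scaffold, Nitab4.5_0006376g0040, was also higher in G70, with 33.98, 82.22 and 38.50 FPKM against 6.15, 6.00 and 7.44 FPKM in GDH11 (difference 2.70, limma adjusted p = 0.0414), but of the fits without 1 library its call held in that without G70 replicate 2 alone.

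Nitab4.5_0000302g0140, Nitab4.5_0002256g0020 and Nitab4.5_0010482g0010 had the same distribution over the groups. In G70 these 3 genes were listed at 21.79 to 30.84, 14.53 to 22.42 and 16.21 to 19.92 FPKM, and in GDH11 all 3 were at or under 0.07 FPKM. Their differences were 4.79, 4.29 and 4.18 (SE 0.17 to 0.21), and each was called without every library in turn. H and K326 both expressed these genes at 9.65 FPKM or more, and LP2 had at most 0.10 FPKM. For this set, GDH11 was the parent that stood alone.

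Another 3 genes were on in G70 and in its hybrid and near 0 in all libraries of K326 and LP2. Nitab4.5_0004024g0020 was listed at 40.39, 29.09 and 18.23 FPKM in G70 and at 0.09, 0.04 and 0.00 FPKM in GDH11 (difference 4.79 ± 0.30, limma adjusted p = 0.00207). K326 and LP2 were at or under 0.04 FPKM, H was at 22.56 to 46.91 FPKM, and L was nevertheless at 15.32 to 20.74 FPKM although both of its parents were near 0. Nitab4.5_0007178g0020 repeated this pattern, with 11.88, 20.25 and 24.79 FPKM in G70, at most 0.01 FPKM in GDH11, 17.81 to 21.25 FPKM in H, at most 0.02 FPKM in K326 and 10.48 to 11.17 FPKM in L. Its difference between the parents was 4.26 ± 0.28 (limma adjusted p = 0.00281). Both genes kept their call without every library in turn. The remaining gene, Nitab4.5_0006170g0010, had 6.47, 12.27 and 17.10 FPKM in G70, at most 0.20 FPKM in GDH11 and 5.05 to 5.42 FPKM in H (difference 3.43 ± 0.33, limma adjusted p = 0.0141). In L it was near 0 (0.28, 0.07 and 0.03 FPKM), unlike the other two, and its call held in 1 of the 6 fits without 1 library, that without G70 replicate 1.

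After Nitab4.5_0000697g0230, the most abundant genes higher in G70 were Nitab4.5_0001310g0060 and Nitab4.5_0000363g0010, which GDH11 expressed too. Nitab4.5_0001310g0060 was listed at 159.78, 240.95 and 228.76 FPKM in G70 and at 18.44, 14.33 and 22.25 FPKM in GDH11, without overlap (difference 3.44 ± 0.25, limma adjusted p = 0.00427). It was at 129.39 to 159.36 FPKM in H and at 12.29 to 21.43 FPKM in K326. LP2 was also low, at 3.21 to 23.03 FPKM, whereas L was listed at 94.37 to 107.00 FPKM. Nitab4.5_0000363g0010 had 141.19, 130.28 and 101.40 FPKM in G70 and 37.36, 44.16 and 29.02 FPKM in GDH11 (difference 1.73 ± 0.23, limma adjusted p = 0.0482). Its call was lost without any of the 6 libraries (limma adjusted p of 0.145 to 0.287), although the groups did not overlap. In H the same gene was listed at 0.05, 0.00 and 0.06 FPKM, far below both parents. The less abundant Nitab4.5_0007696g0010 was near 0 in GDH11. With 65.01, 60.72 and 11.16 FPKM against at most 0.56 FPKM in GDH11, it was called (difference 4.90 ± 0.65, limma adjusted p = 0.0482), but of the fits without 1 library it kept the call only in that without G70 replicate 3, its lowest value. Both of these last calls were also lost without replicate 1 of both parents, with median-of-ratios scaling, without the filter and with a filter at 5 FPKM.

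Among the genes lower in G70, Nitab4.5_0000767g0010 changed the most. It was listed at 0.28, 0.41 and 1.05 FPKM in G70 and at 32.21, 101.86 and 105.56 FPKM in GDH11. The difference was -5.53 ± 0.48 (limma adjusted p = 0.00802), and of the fits without 1 library the call held in that without GDH11 replicate 1, with adjusted p of 0.0501 to 0.08 in the others. H, K326 and LP2 all expressed this gene, with lowest values of 47.75, 76.88 and 44.63 FPKM, so that G70 was the parent that stood alone. Nitab4.5_0000212g0010 was at most 0.52 FPKM in G70 against 47.45, 14.88 and 70.54 FPKM in GDH11 (difference -5.01 ± 0.55, limma adjusted p = 0.0224), but it varied from 1.08 to 236.69 FPKM between the LP2 libraries, and its call held only without GDH11 replicate 2.

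The other large falls in G70 were more even between replicates. Nitab4.5_0000237g0090 was listed at 0.10, 0.00 and 0.04 FPKM in G70 and at 22.51, 30.70 and 43.64 FPKM in GDH11 (difference -4.94 ± 0.26, limma adjusted p = 0.00109). Nitab4.5_0003356g0020, Nitab4.5_0006260g0030, Nitab4.5_0000138g0020 and Nitab4.5_0001123g0010 were at or under 0.47 FPKM in G70 and between 17.85 and 24.31 FPKM in GDH11, with differences of -4.13 to -4.46. All 5 were expressed in K326, LP2 and H, the lowest of these values being 6.47 FPKM, and all 5 kept their call without every library in turn. L had at least 11.10 FPKM of each, so that G70 was again the group with values near 0.

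Nitab4.5_0000302g0060 and Nitab4.5_0007527g0020 departed from this pattern in K326 or in the hybrids. The former had 0.16, 0.08 and 0.20 FPKM in G70 and 33.09, 26.66 and 26.16 FPKM in GDH11 (difference -4.69 ± 0.18, limma adjusted p = 0.000531), with 11.70 to 14.17 FPKM in H. Its K326 values of 2.10, 4.79 and 11.27 FPKM were intermediate and uneven. The latter had at most 0.14 FPKM in G70 and 16.85, 16.56 and 20.42 FPKM in GDH11 (difference -4.09 ± 0.18, limma adjusted p = 0.000531), and was low in K326 as well (0.15 to 0.51 FPKM). The hybrids were low too, with 1.38, 1.47 and 1.42 FPKM in H and 0.10 to 0.21 FPKM in L, closer to the female than to the male parent.

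The most abundant transcript lower in G70, Nitab4.5_0003635g0040, was expressed in both parents. It had 110.21, 101.77 and 118.75 FPKM in G70 and 479.85, 591.07 and 343.25 FPKM in GDH11, with 170.18 to 299.83 FPKM in H between them. The difference was -2.05 ± 0.25 (limma adjusted p = 0.0325), and the call was lost without any of the 6 libraries (limma adjusted p of 0.0712 to 0.227).

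**Figure D2:**
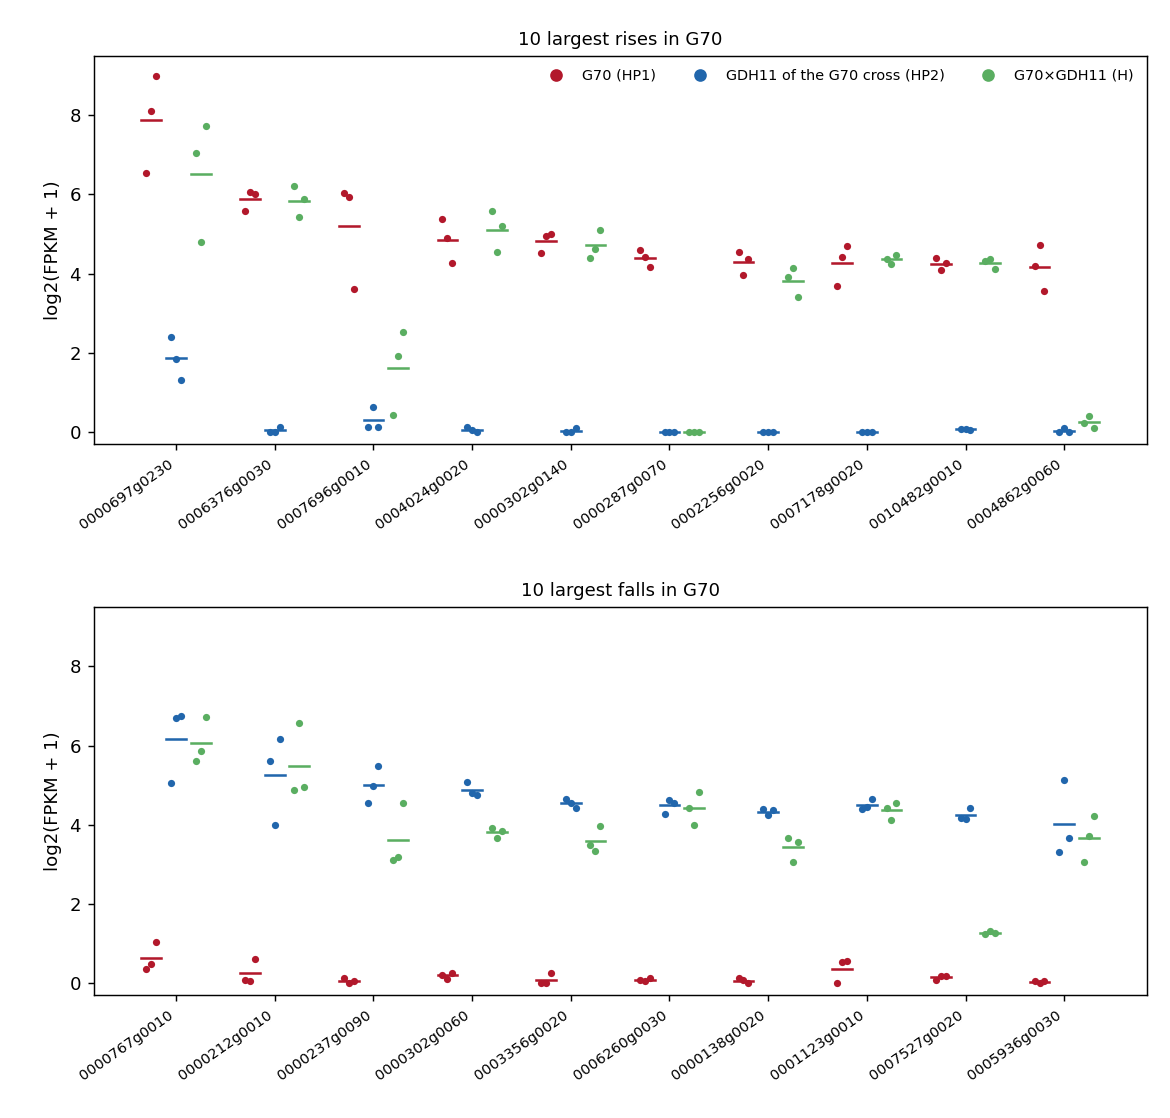
Levels (y axis, log2(FPKM + 1)) of the 10 genes with the largest rise and the 10 with the largest fall in G70 against GDH11, among called genes with a mean of at least 10 FPKM in the higher parent. Points are libraries of G70 (HP1), GDH11 (HP2) and the hybrid (H), 3 a group, and lines are group means; the points of G70 and GDH11 do not overlap for any gene, and H is near 0 for Nitab4.5_0000287g0070 and Nitab4.5_0004862g0060.

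Genes with very low values in 1 parent were examined further, with limits chosen after the values had been seen. The words on, off and near silent refer to the listed FPKM throughout. Reads were mapped to the genome of K326, and whether sequence differences from it lowered the values of a parent was not tested. With all 3 libraries of 1 parent under 1 FPKM and all 3 of the other at 1 FPKM or more, 115 genes were on in G70 (35 of them called) and 115 were on in GDH11 (54 called). At stricter limits, under 0.5 FPKM against at least 5 FPKM, 12 genes were on in G70 and 23 in GDH11, and 35 of these 35 were called; these levels are those the test used, and the count is a description. Of the 35 genes, 34 were called without replicate 1 of both parents, 35 with the replicate block and 29 in each fit without 1 library. These genes thus made up most of the 32 calls that held without every library in turn. They had been picked for a wide gap in the same libraries, so that the counts of these fits are a description too.

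For the 12 genes on in G70, the libraries of GDH11 grown beside the K326 cross were under 0.5 FPKM in 12 of 12, in libraries that the comparison had not used. K326 had at least 5 FPKM in all libraries for 6 of the 12 and was under 0.5 FPKM for 4. H was on at these limits for 7 and off for 2. For the 23 genes on in GDH11, LP2 was on for 12 and in between for 11, K326 was on for 16 and off for 2, and H was on for 16 and off for 2. For all 11 in between, LP2 replicate 2 was the lowest library of its group and under 5 FPKM, at 0.00 to 4.46 FPKM. It was at 0.00 FPKM for Nitab4.5_0000476g0260 and Nitab4.5_0001553g0050, with 12.78 and 7.48 FPKM in replicate 3 of that group. Another LP2 library was under 5 FPKM only for Nitab4.5_0003356g0080 (4.54 FPKM in replicate 1) and Nitab4.5_0005936g0030 (4.67 FPKM in replicate 3). LP2 replicate 2 is the library with few genes at 1 FPKM or more, and its part in these values was not tested.

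**Figure D3:**
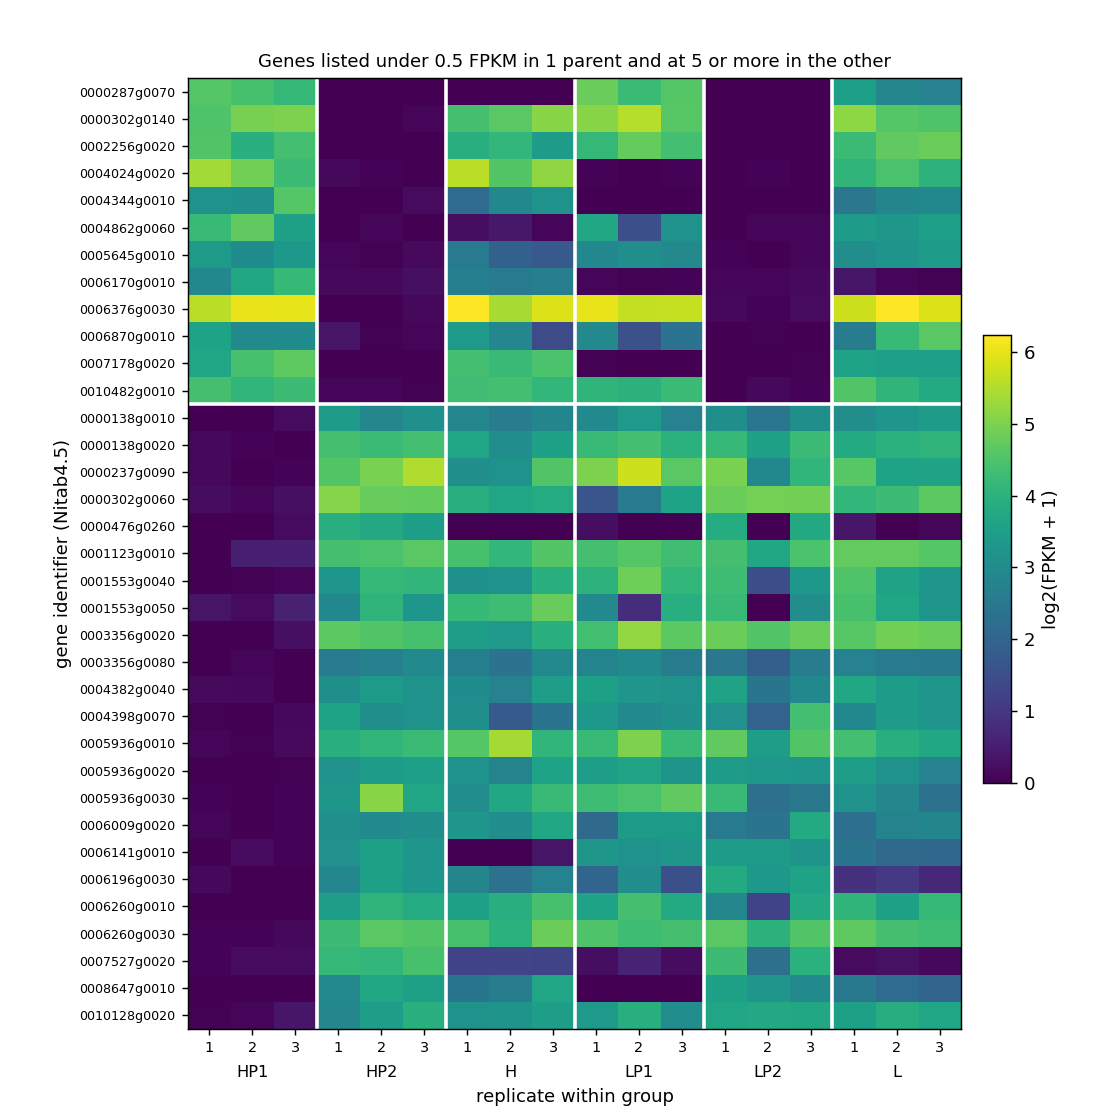
Levels (colour, log2(FPKM + 1)) of the 12 genes on in G70 and near silent in GDH11 (above the white line) and of the 23 genes on in GDH11 and near silent in G70 (below it), in the 18 libraries (columns, 3 a group). LP2 is dark wherever HP2 is dark in the upper rows, the lower rows are dark in HP1 and mostly bright in LP1, and a few rows are dark in H.

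A smaller number of genes were near silent in H although a parent expressed them. All 3 libraries of H were under 0.5 FPKM for 21 of the 130 called genes (16.2%), 10 of them higher and 11 lower in G70, against 0.357% of all genes tested. The limit was chosen after the values had been seen, and called genes include many with 1 parent near 0, so that the shares describe different kinds of genes. Nitab4.5_0000287g0070 was listed at 23.11, 20.55 and 16.86 FPKM in G70 and at 0.00 FPKM in all 3 libraries of GDH11 (difference 4.39 ± 0.19, limma adjusted p = 0.000531), and at 0.00 FPKM in all 3 libraries of H. K326 had 18.14 to 27.04 FPKM of the same transcript and L had 5.80 to 10.53 FPKM. The female parents of the crosses thus had similar levels, and the values of their hybrids did not overlap.

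Nitab4.5_0004862g0060 was likewise near 0 in H and not in L. It had 17.43, 25.40 and 10.92 FPKM in G70, at most 0.08 FPKM in GDH11, 0.17, 0.32 and 0.08 FPKM in H and 8.82 to 10.55 FPKM in L (difference between the parents 4.13 ± 0.31, limma adjusted p = 0.00458). K326 was uneven, at 12.31, 1.86 and 8.06 FPKM, and its difference from LP2 was not called. In the opposite direction, Nitab4.5_0006141g0010 was at most 0.14 FPKM in G70 and 7.88, 10.82 and 8.71 FPKM in GDH11 (difference -3.25, limma adjusted p = 0.00159), with 0.00, 0.00 and 0.28 FPKM in H and 3.23 to 4.26 FPKM in L. Nitab4.5_0000476g0260 had 14.00, 12.58 and 10.36 FPKM in GDH11 and at most 0.14 FPKM in G70 (difference -3.66, limma adjusted p = 0.00109), and was 0.00 FPKM in the 3 libraries of H and at most 0.30 FPKM in L. In these cases H lay at the level of the lower parent.

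More often H lay between its parents. The mean of H on the log2(FPKM + 1) scale was between the parental means for 92 of the 130 called genes (70.8%), against 32.1% of all genes tested, whose parental means are close together. Without replicate 1 of both parents the number was 90 (69.2%). On a scale from 0 at the mean of GDH11 to 1 at that of G70, the median position of H was 0.71 for the genes higher in G70 and 0.21 for those lower in G70. In both directions the median of H thus lay nearer to the parent with the higher level on this scale, which compresses high levels.

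Called genes lay close to each other on the scaffolds more often than tested genes in general were called. The 130 genes were found on 110 of the 9652 scaffolds with a tested gene, and 34 of them shared a scaffold with another called gene. Of the 162 tested genes next to a called gene on the same scaffold, 22 were called, which is 13.6% (95% Wilson interval 9.14 to 19.7, counting error only) against 0.393% of all genes. The share was 9.79% without replicate 1 of both parents, 8.0% without G70 replicate 1, and 13.8% to 19.6% without another library. The 13 pairs of neighbours that were both called differed in the same direction in 13 of 13. Both genes of such a pair count among the 22, so that the interval, which takes neighbours as independent, is too narrow. Neighbouring genes can be tandem copies between which the assignment of reads is uncertain, and the gene models were not used here to tell such copies apart.

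Scaffold 0005936 had 4 genes in the table, of which 3 were tested and 3 were lower in G70. Nitab4.5_0005936g0010 was at most 0.11 FPKM in G70 and 13.90, 16.06 and 17.98 FPKM in GDH11 (difference -3.98 ± 0.18, limma adjusted p = 0.00063). Nitab4.5_0005936g0020 was at most 0.03 FPKM in G70 and 8.10, 9.88 and 10.41 FPKM in GDH11 (difference -3.37 ± 0.18). Nitab4.5_0005936g0030 was at most 0.04 FPKM in G70 and 8.92, 33.74 and 11.64 FPKM in GDH11 (difference -3.99 ± 0.46, limma adjusted p = 0.0265), and its call held in 2 of the 6 fits without 1 library, those without GDH11 replicate 1 or replicate 2. All 3 consecutive genes were expressed in H, K326, LP2 and L, at 3.90 FPKM or more. G70 was thus the sole group in which this run of genes was near silent.

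Scaffolds 0006260 and 0007650 showed the same. On scaffold 0006260, Nitab4.5_0006260g0010 was listed at 0.00 FPKM in all 3 libraries of G70 and at 10.23, 15.63 and 13.16 FPKM in GDH11, Nitab4.5_0006260g0020 at most 0.02 against 5.38, 5.69 and 4.86 FPKM, and Nitab4.5_0006260g0030 at most 0.10 against 18.44, 23.70 and 22.44 FPKM. The differences were -3.79, -2.65 and -4.40 (SE 0.16 to 0.21), and the 3 calls held without each library in turn. On scaffold 0007650, Nitab4.5_0007650g0020, Nitab4.5_0007650g0040 and Nitab4.5_0007650g0050 were at most 0.88, 0.06 and 0.00 FPKM in G70 and at least 13.05, 3.50 and 4.80 FPKM in GDH11, with differences of -3.46, -3.07 and -2.84. Their calls held in 3, 1 and 4 of the 6 fits without 1 library.

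Scaffold 0000138 was larger, with 14 tested genes, and its 3 called genes were the first tested ones at its start. Nitab4.5_0000138g0010 was at most 0.14 FPKM in G70 and 9.80, 6.37 and 7.76 FPKM in GDH11, Nitab4.5_0000138g0020 at most 0.09 against 19.90, 17.85 and 19.62 FPKM, and Nitab4.5_0000138g0040 at 0.00 against 5.11, 3.11 and 3.93 FPKM. The differences were -3.09, -4.26 and -2.32 (SE 0.17 to 0.21), and the last of these calls was lost without G70 replicate 2, G70 replicate 3 or GDH11 replicate 3 (limma adjusted p of 0.0718 to 0.0856). The next gene, Nitab4.5_0000138g0050, did not pass the filter, with 0.05 to 0.19 FPKM in G70 and 0.90 to 2.08 FPKM in GDH11. The remaining tested genes of this scaffold, from Nitab4.5_0000138g0060 on, differed by -0.64 to 0.71 and none was called. H expressed the 3 called genes at 3.65 FPKM or more.

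On scaffold 0000188, with 20 tested genes, 1 gene was higher and 3 were lower in G70. Nitab4.5_0000188g0190 had 5.32, 4.13 and 4.32 FPKM in G70 and 0.00, 0.24 and 0.00 FPKM in GDH11 (difference 2.37 ± 0.19, limma adjusted p = 0.00615). Nitab4.5_0000188g0350 had 16.15, 19.41 and 17.61 FPKM in G70 and 75.21, 77.85 and 83.63 FPKM in GDH11 (difference -2.10 ± 0.16, limma adjusted p = 0.00573). Nitab4.5_0000188g0250 and Nitab4.5_0000188g0330 differed by -1.59 and -2.03, with 2.13 to 2.45 and at most 0.07 FPKM in G70. In H all 4 genes lay nearer to G70 than to GDH11, the mean of H being just between the parental means for Nitab4.5_0000188g0250 and Nitab4.5_0000188g0330 and beyond that of G70 for the other 2: H had 14.80, 10.22 and 19.19 FPKM of Nitab4.5_0000188g0350, 2.18 to 3.07 FPKM of Nitab4.5_0000188g0250, at most 0.26 FPKM of Nitab4.5_0000188g0330 and 3.16 to 5.89 FPKM of Nitab4.5_0000188g0190. In L the values of the 3 genes lower in G70 were 43.52 to 46.47, 4.74 to 6.47 and 1.26 to 3.13 FPKM. Nitab4.5_0000188g0190 had 1.80 to 2.92 FPKM in L, against at most 0.07 FPKM in K326 and 0.25 FPKM in LP2. The calls of all 4 genes held in 1 to 3 of the 6 fits without 1 library.

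**Figure D4:**
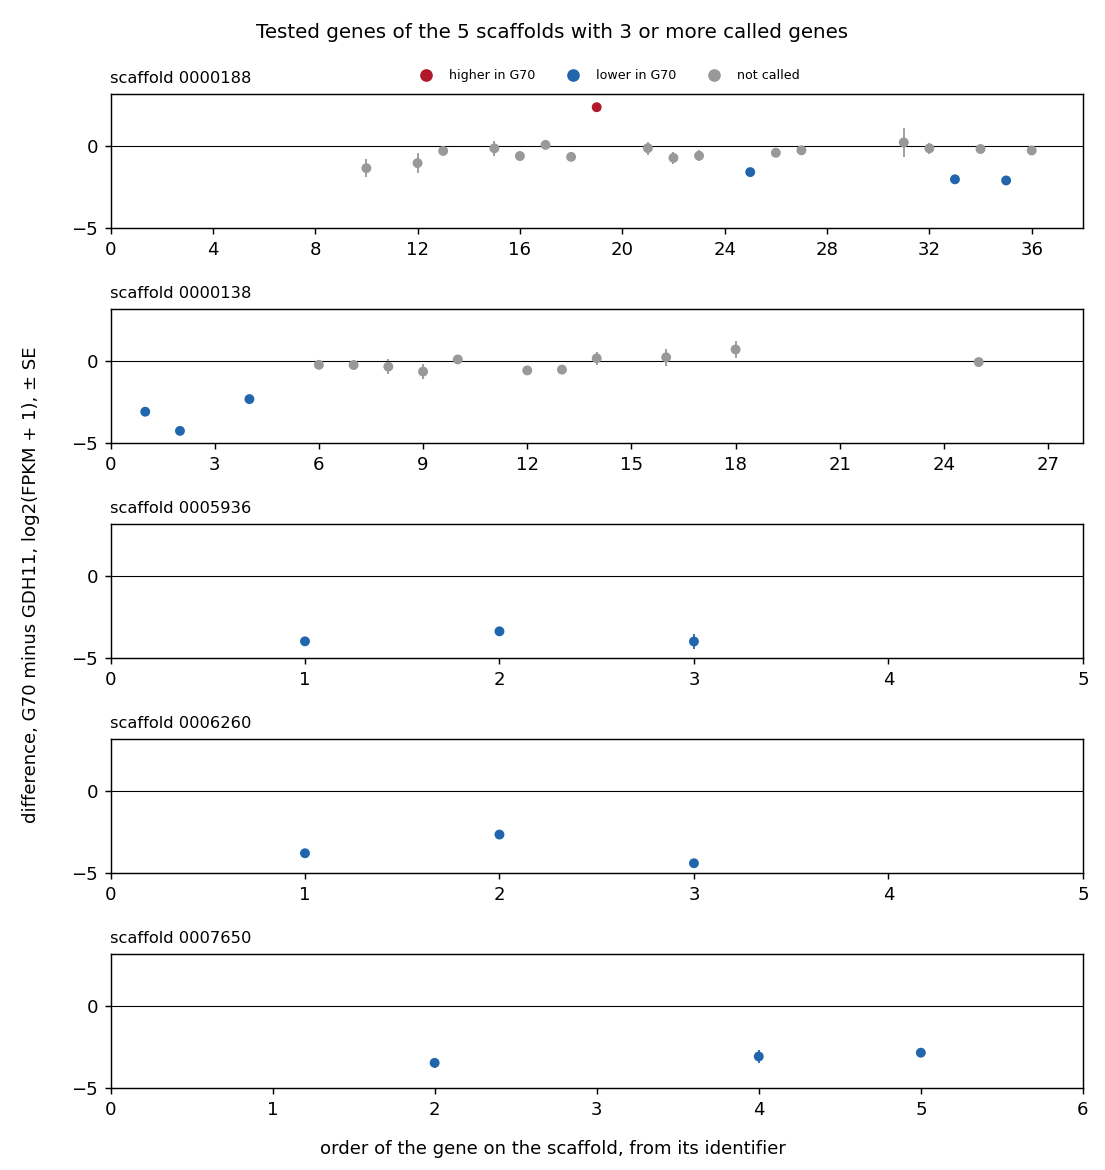
Difference between G70 and GDH11 (y axis, log2(FPKM + 1), bars are SE) of the tested genes of the 5 scaffolds with at least 3 called genes, in the order of the genes on the scaffold (x axis). The called genes of scaffold 0000138 lie at its start, all 3 tested genes of the 3 short scaffolds are lower in G70, and scaffold 0000188 holds 1 gene higher and 3 lower in G70 among uncalled genes.

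A further 9 scaffolds held 2 called genes. On scaffold 0000302 they had opposite directions, since Nitab4.5_0000302g0060 was lower and Nitab4.5_0000302g0140 higher in G70 (both given above), and tested genes between them were not called. On another scaffold the consecutive genes Nitab4.5_0001553g0040 and Nitab4.5_0001553g0050 were at most 0.06 and 0.49 FPKM in G70, against 8.61 to 16.88 and 6.48 to 15.66 FPKM in GDH11. The genes Nitab4.5_0000268g0030 and Nitab4.5_0000268g0040 were expressed in both parents, at 24.22 to 30.35 and 3.14 to 5.47 FPKM in G70 and at 68.10 to 70.28 and 15.40 to 17.95 FPKM in GDH11, and H was at 18.75 to 32.39 and 5.45 to 6.12 FPKM, near G70. These calls held in 0 (Nitab4.5_0000268g0030) and 1 (Nitab4.5_0000268g0040, without G70 replicate 1) of the 6 fits without 1 library, and that of Nitab4.5_0001553g0050 in 2, those without GDH11 replicate 1 or replicate 2.

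GDH11 was sequenced again beside the K326 cross, in libraries that the comparison did not use. The mean of LP2 was nearer to HP2 than to G70 for 124 of the 130 called genes (95.4%), against 43.9% of all genes tested. The parental means of most genes tested are close together, so that these shares describe different kinds of genes. The number was 124 without replicate 1 of both parents (95.4%, all genes 54.9%) and 123 without LP2 replicate 2 (94.6%, all genes 58.3%). All 3 values of LP2 lay outside those of G70, on the side of HP2, for 119 of the 130 genes (91.5%) and for 8.37% of the genes tested. The libraries of G70 are the same in both comparisons, so that these counts do not give separate evidence on G70.

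K326 and GDH11 of the other cross were compared in the same way, over 6 libraries that share none with the comparison of G70. Of 32406 genes tested there, 26 were higher (0.0802%) and 8 lower (0.0247%) in K326. Without LP2 replicate 2 the counts were 23 higher and 17 lower. Between the 2 comparisons, 12 genes were called in the same direction, 10 higher and 2 lower in the female parent, and 0 in opposite directions. They make up 9.23% of the genes called for G70 and 35.3% of the 34 called for K326. The number was 14 without LP2 replicate 2 and 15 without replicate 1 of G70 and GDH11. It was 7 without G70 replicate 2, G70 replicate 3, GDH11 replicate 2 or GDH11 replicate 3. With the replicate block in both fits, limma called 0 genes for K326 against GDH11 and the overlap was 0, with 2924 genes at an unadjusted p of at most 0.05 in that fit.

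The 12 shared genes included Nitab4.5_0006376g0030, Nitab4.5_0000302g0140, Nitab4.5_0000287g0070, Nitab4.5_0002256g0020 and Nitab4.5_0010482g0010, whose differences were 4.18 to 5.84 for G70 and 4.05 to 5.68 for K326. The 2 shared genes lower in the female parent were Nitab4.5_0008647g0010, at 0.00 FPKM in all libraries of G70 and K326 against 6.67 to 12.27 FPKM in HP2, and Nitab4.5_0002328g0050, at most 0.14 FPKM in G70 and 0.04 FPKM in K326 against 3.02 to 5.49 FPKM in HP2. The call of the latter in G70 held only without GDH11 replicate 1 among the fits without 1 library. K326 was nearer to G70 than to HP2 for 28 of the 50 genes higher in G70 and for 15 of the 80 lower in G70. Over all genes tested, most of which have parental means close together, this share was 46.4%.

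Whether the difference between parents itself differed between the crosses was tested over the 12 parental libraries, a test added after the data had been seen. The difference was called for 69 genes (0.209%), and 54 of these were among the 130. Without LP2 replicate 2 the numbers were 66 and 53. The test used again the libraries of G70 and GDH11 by which the 130 had been called, so that this overlap is a description. For Nitab4.5_0004024g0020, the difference for G70 exceeded that for K326 by 4.77 ± 0.35 (limma adjusted p = 0.000147), and for Nitab4.5_0006260g0030 it was below that for K326 by 4.41 (value -4.41 ± 0.31, limma adjusted p = 0.000147).

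The K+ genes were examined by role. Roles are known mainly from Arabidopsis: AKT2, KAT1/2 and GORK are plasma membrane channels of the Shaker family, in the phloem (AKT2) and in guard cells, where KAT1/2 let K+ in and GORK lets it out. KEA1/2 and KEA3 exchange K+ for protons in the chloroplast envelope and the thylakoid, KEA5 does so in endomembranes and NHX1 at the vacuole. TPC1 and the TPKs are channels of the vacuolar membrane, and CIPK5 and CIPK6 are protein kinases that act with calcium sensors. Of the 26 genes, 25 were tested and limma called 0 in all settings tried. The lowest limma adjusted p was 1.0 in the fit without the replicate block and 0.48 with it (Nitab4.5_0005812g0020). At an unadjusted p of at most 0.05 there were 2 genes, against 3.2% of all genes. The differences ranged from -0.69 to 0.69 with a median of -0.13, against -0.06 over all genes, 7 of the 25 being above 0 and 18 below.

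Among the channels, the AKT2 gene Nitab4.5_0000816g0130 had the lowest unadjusted p. It was listed at 14.96, 19.81 and 19.98 FPKM in G70 and at 25.27, 29.22 and 27.49 FPKM in GDH11, with H at 19.74 to 27.14 FPKM. The parents did not overlap, and the difference was -0.57 ± 0.19 (limma, unadjusted p = 0.0202, adjusted p = 1.0), below 1 in size. The more abundant AKT2 gene, Nitab4.5_0001744g0070, was at 94.71, 48.92 and 60.20 FPKM in G70 and at 197.44, 56.19 and 45.45 FPKM in GDH11. Here the groups overlapped, and replicate 1 was the highest library of each parent (difference -0.28 ± 0.57). The 2 GORK genes differed by -0.58 and 0.19, and the 5 tested KAT1/2 genes by -0.69 to 0.08. The remaining KAT1/2 gene, Nitab4.5_0000420g0100, was not tested because it was at most 0.41 FPKM in the 6 libraries.

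Of the antiporters, the KEA1/2 gene Nitab4.5_0003111g0100 was listed at 15.18, 20.31 and 15.59 FPKM in G70 and at 31.85, 23.43 and 21.63 FPKM in GDH11. The values did not overlap, and the difference was -0.56 ± 0.22 (limma, unadjusted p = 0.0415, adjusted p = 1.0), falling to -0.32 without replicate 1 of both parents. The other KEA1/2 gene differed by -0.31, the KEA3 genes by -0.56 and -0.10, the KEA5 genes by -0.18 and -0.11, and the NHX1 genes by 0.16 and -0.02. The vacuolar channels differed by -0.30 and -0.08 (TPC1) and by 0.15 and 0.01 (TPKs).

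The kinase genes varied more between libraries than between parents. The CIPK6 genes were listed at 23.76, 106.94 and 128.86 FPKM (Nitab4.5_0006408g0010) and at 31.65, 150.87 and 153.38 FPKM (Nitab4.5_0004815g0040) in G70, and at 61.53 to 116.47 and 55.00 to 161.95 FPKM in GDH11. Replicate 1 was the lowest library of each parent for both genes, and the differences were -0.26 ± 0.64 and -0.23 ± 0.70. The CIPK5 genes differed by 0.69 ± 0.64 and 0.40 ± 0.37. With standard errors of 0.19 to 0.70 over the 25 genes, a difference below 1 could not be told from the spread between libraries for most of these genes, and the absence of a call does not show that the parents were alike.

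**Figure D5:**
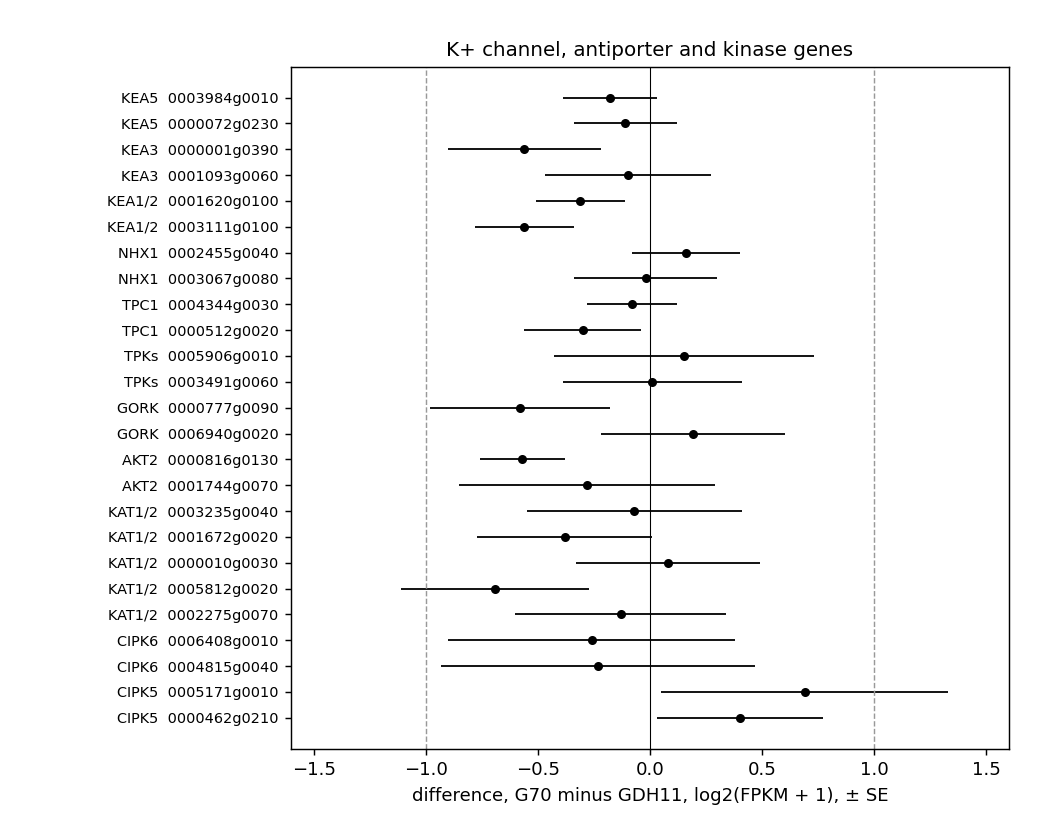
Difference between G70 and GDH11 (x axis, log2(FPKM + 1), bars are SE) of the 25 K+ genes tested, by gene. Dashed lines mark a difference of 1 in either direction, and all points lie between -0.69 and 0.69.

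Genes picked for qRT-PCR were also tested, among them the abundant AKT2 gene. Their differences ranged from -0.51 to 0.33, and limma called 0 of 9, with a lowest unadjusted p of 0.534.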

How the data were processed

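RNA of middle tobacco leaves was sequenced as paired reads of TruSeq libraries. According to the study's methods the authors trimmed the reads, mapped them to the genome of the cultivar K326 with TopHat2 and quantified genes with RSEM, whereas the submitters' processing notes name HISAT2, StringTie and RSEM, and versions are not given in the sources used here. The authors deposited FPKM of 69500 genes in 18 libraries, rounded to 2 decimals, in a table described as counts. Since FPKM are not counts, the depth of each gene is unknown, no count model was fitted and the spread between libraries sets the precision. RSEM divides reads between near-identical copies, so that levels of such genes are uncertain. Tables of FPKM per group were not used.

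FPKM were transformed to log2(FPKM + 1), which understates changes of low genes, without further scaling. G70 and GDH11 were compared with limma 3.58.1 in R 4.3.3 (moderated test with intensity trend, Benjamini-Hochberg adjustment over all genes tested) over genes at 1 FPKM or more in 3 or more of the 6 libraries. Differences are G70 minus GDH11, and ± is the SE with n = 3 a group. Calls needed a difference of at least 1 at an adjusted p no higher than 0.05. Genes named are the 10 largest rises and falls with a mean of at least 10 FPKM in the higher parent, the 3 most abundant of each direction, and those on the scaffolds with most calls; 4 scaffolds tied at 3 calls, so 5 scaffolds were taken. Other genes were named after their values had been seen. The gene lists and comparisons were chosen with earlier results of these data known. The code was tested on simulated data. K+ genes were named by the study, and 0 identifiers matched RefSeq.

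The study planted a random block design and does not say that replicate numbers mark blocks. Deviations of same-numbered libraries of G70 and GDH11 from their group means correlated at 0.59, 0.28 and 0.50. Pairs of different numbers ranged from -0.64 to 0.54, the highest being G70 replicate 2 with GDH11 replicate 3. Libraries of the same number were thus not always the closest. A fit with the replicate number as a block is given where it changed a result. Other alternatives were the pseudocount, the filter, scaling, the libraries in the fit and the thresholds.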

Additional observations from a re-analysis of the deposited data

Results flagged for a closer look

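For 23 of the 46 called genes named above, the difference between the female parent and GDH11 differed between the crosses (limma over the 12 parental libraries, Benjamini-Hochberg adjusted p of 0.000147 to 0.0362, a test added after the data had been seen). Over all genes tested, 69 were called in this test (0.209%). The test used again the libraries of G70 and GDH11 by which the 46 genes had been called, so that the 23 of 46 are a description. For each of the 23 genes the test still called the same direction without LP2 replicate 2. The values are the difference for G70 minus the difference for K326 on the log2(FPKM + 1) scale. They were positive for 5 genes, namely 7.11 for Nitab4.5_0000697g0230, 4.77 for Nitab4.5_0004024g0020, 4.26 for Nitab4.5_0007178g0020, 3.49 for Nitab4.5_0006170g0010 and 2.43 for Nitab4.5_0000188g0190. The other 18 genes were lower in G70 than in GDH11 and were not called lower in K326. Of the genes with the largest falls, the values were -6.08 for Nitab4.5_0000237g0090, -6.06 for Nitab4.5_0000767g0010, -4.46 for Nitab4.5_0003356g0020 and -4.37 for Nitab4.5_0001123g0010. They were -5.10 for Nitab4.5_0001553g0040 and -3.17 for Nitab4.5_0006141g0010. On scaffold 0000138 they were -3.23, -4.46 and -2.48 for genes g0010, g0020 and g0040, and on scaffold 0000188 they were -2.28 and -2.44 for genes g0330 and g0350. On scaffold 0005936 they were -4.21, -3.48 and -5.47 for genes g0010, g0020 and g0030, on scaffold 0006260 they were -5.10, -2.85 and -4.41 for genes g0010, g0020 and g0030, and on scaffold 0007650 the value was -3.57 for gene g0050.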

How the results depend on the processing

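Differences of the 38 genes named by rule kept their sign under every alternative fit. The values of the parents did not overlap for these genes, so that most of these fits could not change the sign. Of 640 values, 554 stayed on the same side of the threshold and the other 86 lost the call. With the replicate block, 87 genes were higher in G70, and the overlap with K326 was 0 while none of these 38 lost a call. Over all 18 libraries 87 genes were higher and the overlap was 46, and over the 9 libraries of the cross the overlap was 20. With at least 5 FPKM required, 61 genes were called, 18 higher and 43 lower, with an overlap of 5. At unadjusted p, 458 were called, 273 higher and 185 lower, with an overlap of 96. Without replicate 1 of both parents 80 were higher. Leaving out 1 library, which leaves 5, gave 37 to 119 calls, 10 to 61 higher, 22 to 58 lower, a neighbour share of 8.0% to 19.6% and an overlap of 7 to 14. Limits for near silent genes changed their number from 115 and 115 to 12 and 23. Why the counts moved was not tested. With 3 libraries a group and FPKM without counts, differences under 1 and levels near 0 are poorly resolved.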
